A study of Rattus norvegicus with 19 samples.

Results

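The genes described here carry water, or control how it is carried, along the nephron. They are the aquaporins Aqp1, Aqp2, Aqp3, Aqp4, Aqp6, Aqp7 and Aqp11, the vasopressin V2 receptor Avpr2 and the urea transporter Slc14a2. They were matched by gene name in the scanner files, and the choice of these genes was made with earlier results of these data known. The match gave 9 genes on 12 probes in 23 spots of each array. Of these, 8 genes entered the fit of 24217 genes. Slc14a2 was too dim to enter it.

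The data are 1-colour microarrays of renal cortex RNA from male Crl:CD (SD) rats, 19 arrays in all. DKD+enarodustat rats (n = 7) had received 65 mg/kg streptozotocin intravenously, a toxin of the insulin-producing cells, and then ate feed with 0.01% enarodustat, which blocks HIF prolyl hydroxylase and so keeps hypoxia-inducible factor (HIF) from being degraded. DKD rats (n = 7) had the same injection and normal feed, and Sham rats (n = 5) had vehicle and normal feed. The injection preceded grouping by 7 days, the 14 diabetic rats were picked from 19 injected ones so that the groups had similar body weight and blood glucose, and the kidneys were collected 14 days after the grouping. All diabetic rats therefore share a toxin-induced loss of insulin, and no group was given enarodustat without streptozotocin. Urine volume, plasma vasopressin and aquaporin protein were not analysed here.

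Water leaves the tubule fluid mainly in the proximal tubule and thin descending limb, through AQP1, and then under hormonal control in the collecting duct. There vasopressin binds AVPR2 on the principal cell and raises cyclic AMP, which moves AQP2 to the luminal membrane and raises its transcription. Water then leaves the cell across the basolateral membrane through AQP3 and AQP4, drawn by the medulla's salt and by urea that Slc14a2 lets out of the inner medullary duct. Untreated diabetes brings glucose into the urine, which holds water in the tubule and gives polyuria.

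A level below is log2 of an array's processed signal less that array's 75th percentile, so that levels of 1 probe can be compared between arrays but not those of different probes. A difference is tested with limma over all 24217 genes, with p-values adjusted by the Benjamini-Hochberg method, and a gene is said to have risen or fallen where the adjusted p is under 0.05. Between 54.4% and 67.3% of probes were well above background on an array, on average 58.9% ± 2.87 in DKD+enarodustat (SD, n = 7), 62.8% ± 4.87 in DKD (SD, n = 7) and 64.3% ± 2.61 in Sham (SD, n = 5). Each of the 3 slides carried arrays of every group. All DKD+enarodustat arrays lay in slide row 2, all Sham arrays in row 1, and DKD arrays in row 1 except replicates 2 and 4. Row and group can therefore be told apart only through those 2 DKD arrays.

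In DKD against Sham, 5 of the 8 measured genes changed. Aqp2, Aqp3, Aqp4 and Aqp6 rose, Aqp1 fell, and Aqp7, Aqp11 and Avpr2 did not pass the test. The background is high: 17.1% of all genes tested changed in this comparison, 8.02% upward and 9.07% downward. Of the genes that changed, 46.9% were higher in DKD, or 34.7% after normexp background correction and quantile normalization. The median difference of the 8 genes was 0.28, beside -0.02 for all genes. With the replicate number as a block, 3 of the 8 changed, since Aqp3 and Aqp6 no longer passed. In bulk cortex, fewer or more cells of a type and less or more RNA per cell cannot be told apart in any of these differences.

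**Figure D1:**
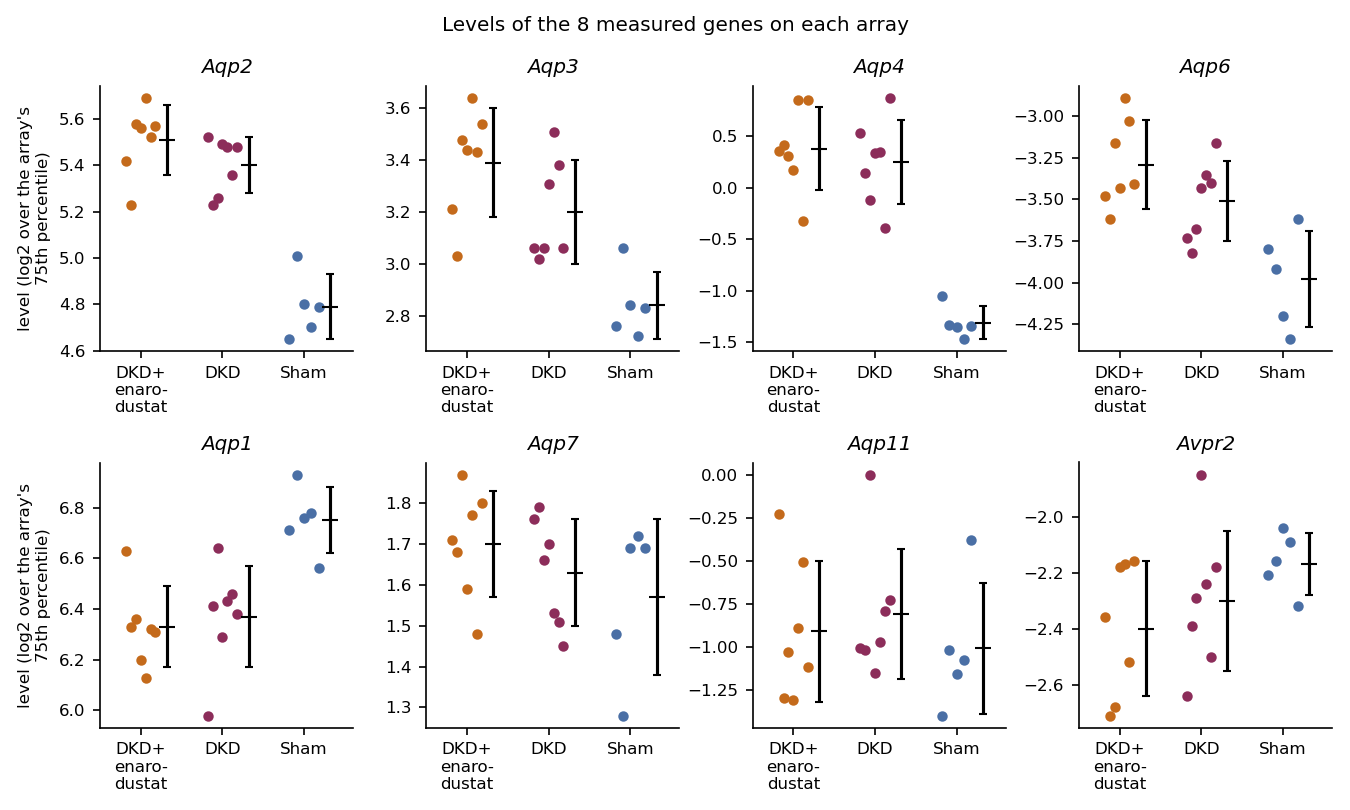
Level of each measured gene on every array (vertical axes, log2 over the array's 75th percentile, a separate scale for each gene), by group from left to right. Points are arrays and the black marks are the mean ± SD; for Aqp2 and Aqp4 every DKD+enarodustat and DKD array lies above every Sham array, while for Avpr2 and Aqp11 the groups overlap.

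Aqp2, the vasopressin-regulated luminal channel of the principal cell, was higher in diabetic cortex without overlap. Its level ran from 5.23 to 5.69 (median 5.56) in DKD+enarodustat and from 5.23 to 5.52 (median 5.48) in DKD, against 4.65, 5.01, 4.80, 4.70 and 4.79 in Sham replicates 1 to 5. The highest Sham array thus lay below the lowest diabetic array. DKD exceeded Sham by 0.61 ± 0.08 (SE), a fold of 1.53, with an adjusted p of 6.83e-05 by limma. Within slides 1 and 2, which hold 2 arrays a group, the DKD difference was 0.54 and 0.62, with adjusted p of 0.26 and 0.178. In these small fits 0 and 2 of all genes passed.

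Aqp4, the vasopressin-independent basolateral channel best known from brain astrocytes, had the largest difference of the 8 genes. Its level ran from -0.32 to 0.85 (median 0.36) in DKD+enarodustat and from -0.39 to 0.87 (median 0.34) in DKD, against -1.05, -1.33, -1.35, -1.47 and -1.34 in Sham replicates 1 to 5. All diabetic arrays lay above all Sham arrays, and both diabetic groups spread more widely, with SDs of 0.40 and 0.41 against 0.16 in Sham. DKD exceeded Sham by 1.56 ± 0.21 (SE), a fold of 2.94, with an adjusted p of 5.19e-05 by limma. The difference was of the same size within slides 1 and 2, at 1.53 and 1.52 (adjusted p 0.0953 and 0.114), and without the 2 DKD arrays of slide row 2, at 1.56. The single probe is annotated to transcript variant 2, so other variants were not measured on their own.

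Aqp3, the other basolateral channel of the principal cell, which also passes glycerol, rose by less. Its level ran from 3.03 to 3.64 (median 3.44) in DKD+enarodustat and from 3.02 to 3.51 (median 3.06) in DKD, against 2.76, 3.06, 2.84, 2.72 and 2.83 in Sham replicates 1 to 5. Sham replicate 2 reached into the range of both diabetic groups. DKD exceeded Sham by 0.36 ± 0.11 (SE), with an adjusted p of 0.0328 by limma, and by 0.33 with an adjusted p of 0.0569 with the replicate number as a block. The call was lost on leaving out any 1 of Sham replicates 1, 3, 4 and 5 or DKD replicates 4, 5 and 6, with an adjusted p of up to 0.0847.

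Aqp6, an anion-permeable channel held in vesicles of the acid-secreting intercalated cells, was likewise near the threshold. Its level ran from -3.62 to -2.89 (median -3.41) in DKD+enarodustat and from -3.82 to -3.16 (median -3.43) in DKD, against -3.80, -3.92, -4.20, -4.34 and -3.62 in Sham replicates 1 to 5. Sham replicates 1 and 5 lay within the DKD range, and the other 3 below it. DKD exceeded Sham by 0.47 ± 0.15 (SE), with an adjusted p of 0.0406 by limma, and by 0.41 with an adjusted p of 0.0507 with the replicate block. Leaving out any 1 of Sham replicates 2, 3 and 4 or DKD replicates 4, 5, 6 and 7 ended the call, with an adjusted p of up to 0.124.

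Aqp1, the constitutive channel of the proximal tubule and thin descending limb, moved the other way. Its level ran from 6.13 to 6.63 (median 6.32) in DKD+enarodustat and from 5.98 to 6.64 (median 6.41) in DKD, against 6.71, 6.93, 6.76, 6.78 and 6.56 in Sham replicates 1 to 5. Only Sham replicate 5 reached into the diabetic range. The DKD difference was -0.38 ± 0.10 (SE), a 1.30-fold lower level, with an adjusted p of 0.0146 by limma. A second Aqp1 probe gave levels of 3.26 to 4.16 in DKD+enarodustat and of 3.12 to 4.39 in DKD, against 4.30, 4.66, 4.58, 4.59 and 3.95 in Sham. Its difference was -0.60 ± 0.19 (SE), with an adjusted p of 0.038 in a fit of all 30259 probes that passed the background filter. The first probe's difference was -0.37 among slide row 1 arrays alone (adjusted p 0.0781), and -0.63 and -0.31 within slides 1 and 2 (adjusted p 0.245 and 0.443).

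The genes that did not pass the test include the hormone's receptor. Avpr2 levels ran from -2.71 to -2.16 (median -2.36) in DKD+enarodustat and from -2.64 to -1.85 (median -2.29) in DKD, against -2.21, -2.16, -2.04, -2.09 and -2.32 in Sham replicates 1 to 5. The groups overlap, and the DKD difference was -0.13 (95% interval -0.40 to 0.14, adjusted p 0.58 by limma). Aqp7, a glycerol and water channel of the straight proximal tubule, ran from 1.45 to 1.79 in DKD, against 1.48, 1.28, 1.69, 1.72 and 1.69 in Sham, a difference of 0.06 (95% interval -0.13 to 0.25, adjusted p 0.752). Aqp11, an intracellular channel of the proximal tubule whose loss gives cystic kidneys in mice, ran from -1.15 to -0.0023 in DKD, against -1.40, -1.02, -1.16, -1.08 and -0.38 in Sham. Its difference was 0.20 (95% interval -0.27 to 0.66, adjusted p 0.641), and its interval is the widest of the 8 genes. An Avpr2 change the size of that of Aqp2 lies outside its interval, and a change of up to -0.40 lies inside it.

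Slc14a2, the vasopressin-regulated urea transporter of the inner medullary collecting duct, was at the limit of detection in these cortex samples. Its transcript variant 2 probe was well above background on 0 of 7 DKD+enarodustat, 1 of 7 DKD and 1 of 5 Sham arrays. Of the 2 variant 1 probes, one was above background on 1 DKD+enarodustat array, at a level of -3.92 where the other 6 arrays of the group lay between -9.12 and -8.28, and the other probe on 0 of 19 arrays. No difference is given for it. Slc14a1, the urea transporter of the vasa recta and red cells, was not among the genes in the fit either, so no urea transporter of this family was compared between groups.

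In DKD+enarodustat against DKD, 0 of the 8 genes changed by limma at an adjusted p under 0.05, and 0 of 8 had an unadjusted p under 0.05. In all genes 2.00% changed, 1.07% upward and 0.933% downward, which is 485 genes, against 3316 at an unadjusted p under 0.05; without DKD replicate 6 the number was 286. Of these 485 genes 53.4% were higher in DKD+enarodustat, or 34.4% of those called in the authors' deposited table. The differences of the 4 genes that rose in DKD were 0.11 for Aqp2 (95% interval -0.05 to 0.27), 0.19 for Aqp3 (-0.02 to 0.41), 0.13 for Aqp4 (-0.26 to 0.53) and 0.22 for Aqp6 (-0.07 to 0.51). All 4 point estimates lie above 0, away from the Sham level, with adjusted p between 0.42 and 0.875. The interval of Aqp2 thus reaches down only to -0.05, beside a DKD minus Sham difference of 0.61, and that of Aqp4 to -0.26, beside 1.56. The 4 estimates are not independent, since Aqp2 and Aqp3 varied together (r = 0.68 with group and slide means removed). In 1 of 32 settings the Aqp2 estimate was itself -0.05. Only DKD replicates 2 and 4 share slide row 2 with the DKD+enarodustat arrays. Aqp1 differed by -0.04 (-0.24 to 0.15), Avpr2 by -0.10 (-0.35 to 0.15), Aqp7 by 0.07 (-0.10 to 0.24) and Aqp11 by -0.10 (-0.52 to 0.33).

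**Figure D2:**
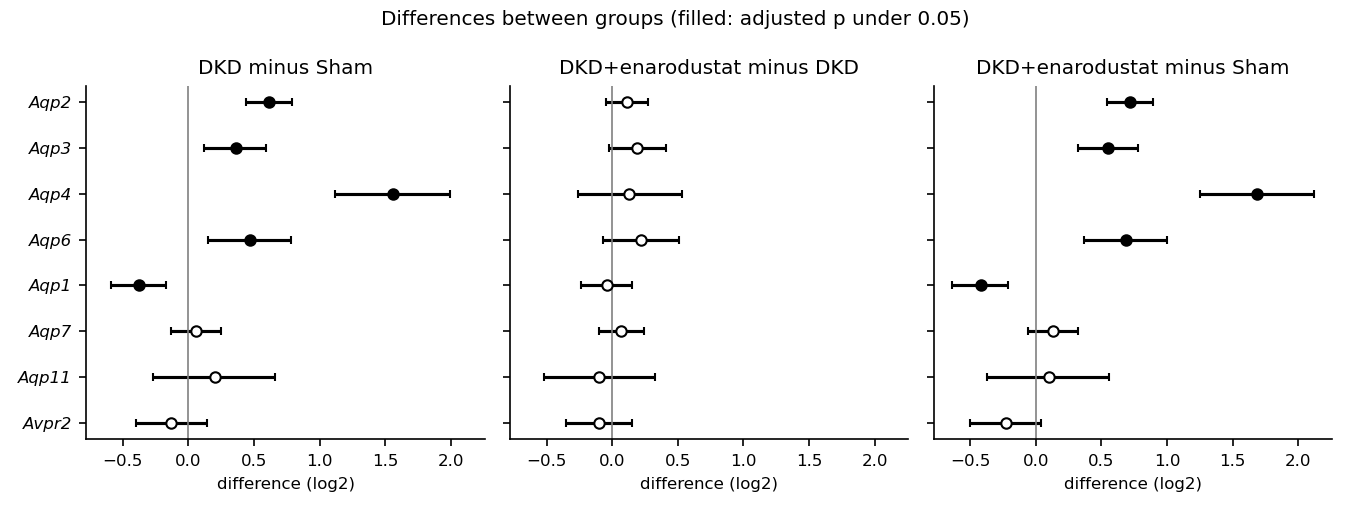
Log2 differences (horizontal axes) of the 8 measured genes with 95% intervals in the 3 comparisons; filled points have an adjusted p under 0.05 by limma. Aqp4 stands at 1.56 in DKD minus Sham and at 1.69 in DKD+enarodustat minus Sham, while every interval in DKD+enarodustat minus DKD spans 0.

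In DKD+enarodustat against Sham, 5 of the 8 genes changed, 4 upward and 1 downward, where 26.1% of all genes changed, 10% upward and 16% downward. This comparison shares its Sham arrays with that of DKD, so the pair is not independent. Aqp2 was higher by 0.72 ± 0.08 (SE, adjusted p 7.5e-06) and Aqp4 by 1.69 ± 0.21 (SE, adjusted p 1.29e-05), a fold of 3.22, each without overlap. Aqp3 was higher by 0.55 ± 0.11 (SE, adjusted p 0.00128), Aqp6 by 0.69 ± 0.15 (SE, adjusted p 0.0026), and Aqp1 differed by -0.42 ± 0.10 (SE, adjusted p 0.0048). The lowest DKD+enarodustat level of Aqp3, 3.03, lay just under the highest Sham level, 3.06, and for Aqp6 both levels were -3.62 to 2 decimals. The median difference of the 8 genes was 0.34, beside -0.04 for all genes. With slide row as a covariate, only Aqp2 and Aqp4 of the 8 passed the test, and 1031 of all genes passed, in place of 6311 without it.

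Related genes were examined as lists. Of the other aquaporins, 4 of 5 were measured, and 1 fell in DKD and 0 rose (median difference -0.18). That one was Aqp5, an exocrine gland channel, whose difference was -0.83 ± 0.25 (SE, adjusted p 0.0302 by limma). It was dim, being well above background on 1 of 7 DKD+enarodustat, 4 of 7 DKD and 5 of 5 Sham arrays. DKD replicate 1, at -5.77, lay within the Sham range of -6.33 to -5.67. The Aqp5 probe lies between those of Aqp2 and Aqp6, at chr7:138340966-138341024 of rn4, with Aqp2 at chr7:138330832-138330891 and Aqp6 at chr7:138349934-138349993. Aqp8 differed by 0.55 (adjusted p 0.208) and Mip, the lens aquaporin, by -0.54 (adjusted p 0.274).

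Aqp3 and Aqp7 are also neighbours, with probes at chr5:58501847-58501906 and chr5:58433937-58433996 of rn4, and there Aqp3 rose and Aqp7 did not pass the test. The Aqp1 probes lie at chr4:84110431-84110491 and chr4:84110125-84110184, that of Aqp4 at chr18:6626431-6626490, that of Aqp11 at chr1:154974018-154974077 and that of Avpr2 at chrX:159823429-159823488. Exon and UTR positions were not assigned, since no rn4 annotation was used here.

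The promoters of Aqp2, Aqp6 and Aqp4 are shown because Aqp2 and Aqp4 had the clearest differences and Aqp6 shares the Aqp2 cluster. Each is the 250 bases before the RefSeq start on the gene's own strand in GRCr8, with capitals marking TGACG (a core of the cyclic AMP response element that CREB binds), ACGTG (the core that HIF binds) or TGGAAA (the core of the NFAT5 element of hypertonicity), read on either strand.
Aqp2 (chr7:132590036-132590285, plus strand): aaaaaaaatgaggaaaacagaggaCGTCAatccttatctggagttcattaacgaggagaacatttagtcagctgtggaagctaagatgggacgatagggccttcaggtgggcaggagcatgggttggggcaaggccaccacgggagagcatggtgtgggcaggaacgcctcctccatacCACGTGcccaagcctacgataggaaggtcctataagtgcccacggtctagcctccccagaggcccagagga
Aqp6 (chr7:132610819-132611068, plus strand): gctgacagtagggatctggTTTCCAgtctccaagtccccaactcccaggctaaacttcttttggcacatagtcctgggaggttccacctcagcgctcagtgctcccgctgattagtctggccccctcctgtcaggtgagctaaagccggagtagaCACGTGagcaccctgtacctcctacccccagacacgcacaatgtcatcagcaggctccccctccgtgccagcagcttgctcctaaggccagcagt
Aqp4 (chr18:6798843-6799092, minus strand, the first of 2 starts): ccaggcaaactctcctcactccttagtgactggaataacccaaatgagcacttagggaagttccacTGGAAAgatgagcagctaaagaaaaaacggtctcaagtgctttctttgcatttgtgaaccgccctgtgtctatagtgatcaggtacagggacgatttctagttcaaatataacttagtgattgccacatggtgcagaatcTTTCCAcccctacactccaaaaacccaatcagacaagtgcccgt

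Counting back from -1, the base before the start, the Aqp2 window held TGACG on the reverse strand at -226 to -222. It also held ACGTG on both strands at overlapping positions, from -71 to -66. These letters, CACGTG, read the same on both strands, so the pair is 1 place and not 2. The Aqp6 window held the same overlapping pair from -95 to -90 and TGGAAA at -231 to -226. The first Aqp4 window held TGGAAA at -184 to -179 and at -44 to -39. The window of the other Aqp4 start, not printed, held TGGAAA at -72 to -67. Which start belongs to the transcript variant that the Aqp4 probe is annotated to was not determined. Of the 8 genes with a window in the table (all but Aqp7), TGACG was in 1, ACGTG in 2 and TGGAAA in 2. Over the windows of 27457 genes, 19.0% held TGACG, 16.9% ACGTG and 19.5% TGGAAA. The full element TGACGTCA was in 1.70% of windows and the AP-1 site TGAGTCA in 3.98%, and none of the 8 genes' windows held either. A match describes the letters of a window and is not a measured binding site.

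Among 20 measured genes of vasopressin signalling, 0 rose and 3 fell in DKD, with a median difference of -0.12, where 8.02% of all genes rose and 9.07% fell. Creb1, the transcription factor activated by cyclic AMP, differed by -0.30 ± 0.07 (SE, adjusted p 0.0058), Ptgs2, a prostaglandin synthase, by -1.31 ± 0.32 (SE, adjusted p 0.00815), and Prkar2a, a regulatory subunit of protein kinase A, by -0.59 ± 0.19 (SE, adjusted p 0.0354). Ptgs2 averaged -4.38 ± 0.48 in DKD+enarodustat, -5.31 ± 0.48 in DKD and -4.00 ± 0.78 in Sham (SD). Its DKD+enarodustat minus DKD difference was 0.93 ± 0.29 (SE) with an adjusted p of 0.121. In DKD+enarodustat against Sham 0 genes of this list rose and 3 fell, with Creb1 at -0.37 and Prkar2a at -0.80.

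The list of proteins that move AQP2 vesicles had 2 of 16 genes up and 0 down in DKD, with a median difference of -0.08. Of all genes, 8.02% rose and 9.07% fell in DKD. Vamp8, a vesicle SNARE, was higher by 0.28 ± 0.06 (SE, adjusted p 0.00254) without overlap, and Mal, a membrane protein that holds AQP2 at the luminal surface, by 0.39 ± 0.11 (SE, adjusted p 0.0243). In DKD+enarodustat against Sham 1 gene of this list rose and 3 fell, with Vamp8 at 0.34, Stxbp2 at -0.29, Snap23 at -0.32 and Msn at -0.46, and Mal differed by 0.15 (adjusted p 0.38). Snap23 and Msn were named after their values were seen. Of 7 measured genes of the urea and hypertonicity response, 0 changed in DKD (median 0.15). Nfat5, its transcription factor, differed by 0.15 (adjusted p 0.362) and Akr1b1, the aldose reductase that makes sorbitol, by 0.16 (adjusted p 0.508). Gdpd5, which breaks down the osmolyte glycerophosphocholine, differed by 0.33 (adjusted p 0.182) in DKD and rose by 0.47 in DKD+enarodustat against Sham (adjusted p 0.0363).

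Aqp3 and Aqp7 also pass glycerol, and of 6 measured genes of glycerol handling 2 rose and 1 fell in DKD (median 0.36). Pnpla2, which opens triglyceride breakdown, was higher by 0.74 ± 0.15 (SE, adjusted p 0.00182) and Gpd1, glycerol-3-phosphate dehydrogenase, by 0.44 ± 0.15 (SE, adjusted p 0.0495). Gk, glycerol kinase, differed by -0.53 ± 0.14 (SE, adjusted p 0.0138). Adipocytes express Aqp7 and several of these genes, and adipocyte markers moved with the groups: 4 of 8 measured rose in DKD and 0 fell, with a median difference of 2.11. Their summed linear level, in units of the 75th percentile signal, ran from 0.855 to 6.26 in DKD+enarodustat and from 0.856 to 14.9 in DKD, against 0.460 to 0.767 in Sham. Cidea differed by 2.09 (adjusted p 8.53e-05) and Fabp4 by 3.58 (adjusted p 0.011). Lep differed by 1.85 (adjusted p 0.011). It was well above background on 4 of 7 DKD and 0 of 5 Sham arrays, so the size of its difference is uncertain. The part of fat tissue in the glycerol genes was not tested.

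The cells that make these channels were followed by other markers, beside 8.02% of all genes up and 9.07% down in DKD. Of 12 principal cell markers, 1 rose and 3 fell in DKD, with a median difference of 0.00. Fxyd4, a subunit of the sodium pump of the collecting duct, was higher by 0.52 ± 0.12 (SE, adjusted p 0.00492), whereas Hsd11b2, which shields the mineralocorticoid receptor from glucocorticoids, differed by -0.61 ± 0.15 (SE, adjusted p 0.00936). Kcne1, a potassium channel subunit, differed by -2.30 ± 0.30 (SE, adjusted p 4.28e-05). The summed level of the 12 ran from 15.8 to 20.7 in DKD+enarodustat and from 15 to 21.3 in DKD, against 19.8 to 22.7 in Sham. Of 12 intercalated cell markers, 1 rose and 1 fell (median -0.05): Kit by 0.68 ± 0.11 (SE, adjusted p 0.000368), and Slc26a4, the apical chloride and bicarbonate exchanger pendrin, by -0.73 ± 0.18 (SE, adjusted p 0.00773). Their summed level ran from 20.1 to 31.5 in DKD+enarodustat and from 24.3 to 32.5 in DKD, against 26.6 to 34.2 in Sham. A few bright genes weigh most in these sums. In Sham, Hsd11b2 averaged 3.32 and Tfcp2l1 2.7 among principal cell markers, and Atp6v1g3 averaged 3.86 among intercalated cell markers. The part of cell numbers in the differences of Aqp2, Aqp3, Aqp4 and Aqp6 was not tested.

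**Figure D3:**
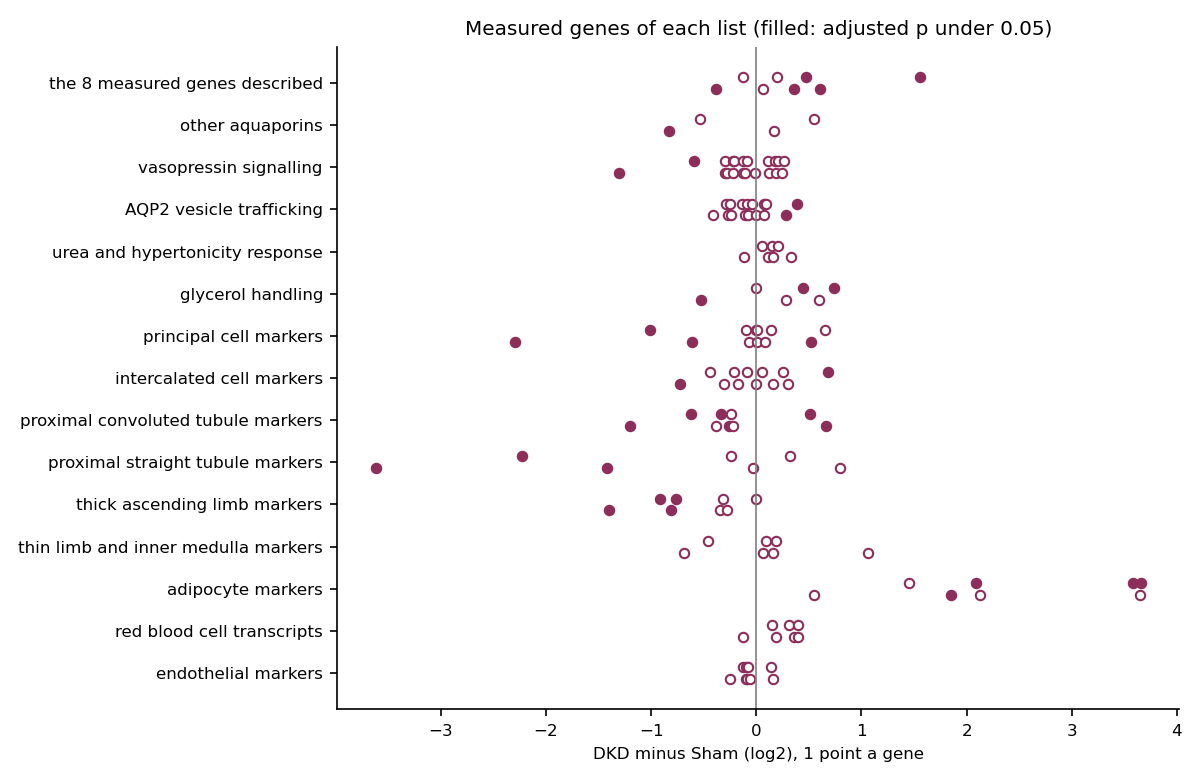
DKD minus Sham log2 difference (horizontal axis) of each measured gene, 1 point a gene, for the 8 measured genes described (top row) and for 14 gene lists; filled points have an adjusted p under 0.05 by limma. Filled points lie on both sides of 0 among principal cell markers, on the left for thick ascending limb markers and on the right for adipocyte markers.

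Aqp1 was set beside markers of the segments that hold it. Of 9 proximal convoluted tubule markers, 2 rose and 4 fell in DKD (median -0.26). Lrp2, the endocytic receptor megalin, differed by -0.62 (adjusted p 0.00199) and Gatm by -1.20 (adjusted p 0.000371), whereas Cubn, megalin's partner cubilin, was higher by 0.51 (adjusted p 0.000286). Their summed level ran from 138 to 172 in DKD+enarodustat and from 142 to 185 in DKD, against 189 to 213 in Sham, without overlap. Bright genes weigh most in this sum as well, and Slc34a1 averaged 6.23 in Sham. Of 7 proximal straight tubule markers, 0 rose and 3 fell (median -0.24), led by the amino acid transporters Slc7a12 at -3.62 (adjusted p 2.6e-06) and Slc7a13 at -1.42 (adjusted p 0.00862) and the anion transporter Slc22a13 at -2.23 (adjusted p 0.00909). The part of these shifts in the Aqp1 difference was not tested.

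Markers of deeper segments were examined as well. Of 8 thick ascending limb markers, 0 rose and 4 fell in DKD (median -0.55), with Egf at -0.92 (adjusted p 3.99e-05), Tmem207 at -1.40 (adjusted p 0.000885) and Umod at -0.76 (adjusted p 0.00399). Their summed level ran from 101 to 146 in DKD+enarodustat and from 91.3 to 140 in DKD, against 152 to 178 in Sham. Of 7 measured markers of thin limb and inner medulla, 0 changed in DKD (median 0.09), and their summed level ran from 12.8 to 21.0 in DKD+enarodustat and from 8.84 to 29.1 in DKD, against 19.8 to 35.3 in Sham. Among them Epha7 differed by -0.46 (adjusted p 0.083) and Cryab, a small heat shock protein, by -0.69 (adjusted p 0.111). Single bright genes weigh most in these sums too. In Sham, Umod averaged 6.80 among thick ascending limb markers and Cryab 4.59 among those of thin limb and inner medulla. The latter sum therefore mostly follows Cryab, which did not pass the test. Of 7 red blood cell transcripts and 9 endothelial markers, 0 changed in DKD by limma, and 0 in DKD+enarodustat against DKD, with Tek nearest at 0.32 (adjusted p 0.0529).

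Array by array, some of these genes varied together once group and slide means were removed. Aqp2 and Aqp3 had the highest correlation among the pairs of the 8 genes, with Pearson's r = 0.68 over 19 arrays, followed by Aqp1 with Aqp11 at 0.48 and Aqp4 with Avpr2 at 0.47. The genes most like each member among the 18341 others above background on all arrays were Csrp2 (0.87) and Tmem161a (0.86) for Aqp2, Kcnj15 (0.88), Igf2r (0.87) and Cnnm4 (0.85) for Aqp3, and Hsd11b2 (0.84) and Pgam1 (0.81) for Aqp4. They were Oxld1 (0.77) for Aqp6, Rheb (0.88) and Eapp (0.84) for Aqp1, Dap (0.86) and Apln (0.82) for Aqp7, Folr1 (0.83) and Lgals8 (0.81) for Aqp11, and Vps39 (0.82) for Avpr2. Unnamed transcripts and pseudogenes among the first 3 are left out. The arrays share scaling and slide, and the highest of so many correlations over 19 arrays are large in any case. With group and slide means left in, Aqp2 with Csrp2 stood at -0.51, Aqp3 with Kcnj15 at -0.05 and Aqp6 with Oxld1 at 0.01. Other pairs stayed high, such as Aqp7 with Dap at 0.83 and Aqp1 with Eapp at 0.79. For Aqp4 and Hsd11b2 this correlation was -0.53, since Aqp4 was higher and Hsd11b2 lower in diabetic cortex.

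**Figure D4:**
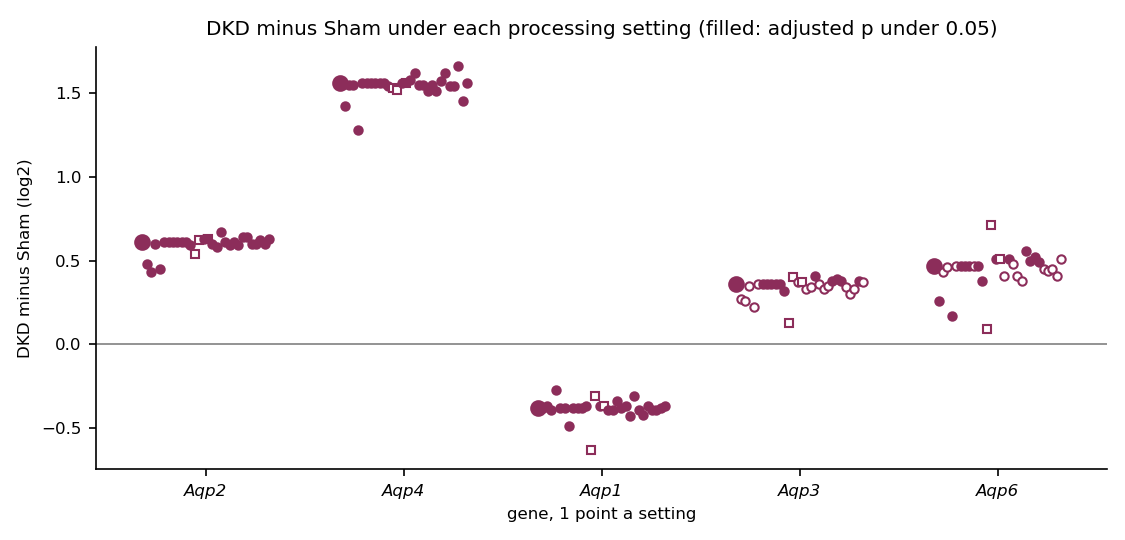
DKD minus Sham log2 difference (vertical axis) of the 5 genes that changed, 1 point for each processing setting; the large point is the reported value, squares are fits within 1 slide or 1 slide row, and filled points have an adjusted p under 0.05 by limma. Aqp4 stays between 1.28 and 1.66 and Aqp2 between 0.43 and 0.67, while Aqp3 and Aqp6 have many open points.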

How the data were processed

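Renal cortex RNA was labelled with Cy3 and hybridised to 1 Agilent array a rat. The authors deposited 1 scanner file an array, and per the file headers it was written by version 11.5.1.1 of Agilent's Feature Extraction software. Its processed signal is an intensity that is background-subtracted and detrended within the array, per the file headers, with probe positions on rn4. The authors' deposited value table holds log2 values, with limma named in the submitters' processing notes and the steps, scale and centring not given in the sources used here.

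Here log2 of the processed signal less the array's 75th percentile was averaged over the spots of a probe, leaving out outlier flags. Probes well above background on at least 5 of 19 arrays were kept (30259), and the brightest stood for its gene. Gene names came through RefSeq accessions of GRCr8 for 21109 of 45598 probes, through another probe of the gene for 1977, and otherwise from the files. Groups were compared with limma 3.58.1 (R 4.3.3) in 1 fit of 3 groups and 16 residual degrees of freedom, tested on simulated data.

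Same-numbered arrays lie on the same slides and deviated together in every pair (correlation 0.13 to 0.59), so the replicate number was fitted as a block as an alternative. Other alternatives changed scaling, filter, probe choice, slide, slide row and the arrays used. The genes described, and the gene lists, were chosen with earlier results of these data known, as were the promoter motifs. All 9 genes and all their probes are named, with up to 3 genes a list (smallest adjusted p over the first 2 comparisons) and the 3 genes most like each by residual correlation, of which those with a gene name are printed. One gene that this rule names is not reported here. Ptger3 and Akr1b1 stand in 2 lists each. Promoter sequences are from RefSeq (GRCr8). The number of arrays limits the precision.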

Additional observations from a re-analysis of the deposited data

Results flagged for a closer look

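Of 27 pairs of a measured probe and a group, 1 held an array that stood far from the rest of its group. Aqp11 in DKD replicate 3 was at -0.0023, where the nearest DKD array was at -0.73 and the lowest at -1.15, so that the gap took 0.636 of the group's range, above the 95% critical value of Dixon's test for 7 arrays. Chance alone flags about 1 in 20 groups. Without this array the Aqp11 difference between DKD and Sham was 0.06, in place of 0.20, and neither passed the test.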

How the results depend on the processing

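Among 712 refits of single genes, 658 kept their side of the threshold, 54 lost a call and 0 called differences reversed. Aqp2 and Aqp4 lost their DKD call only within single slides. Aqp1 lost it within slides and within slide row 1, Aqp3 in 18 and Aqp6 in 16 of 29 settings. The replicate block changed no other call of these genes. In DKD against Sham the number of the 8 genes called was 5 as reported and 3 with quantile normalization, median centring, no filter on dim probes, the replicate block or without the 2 DKD arrays of slide row 2, an alternative chosen after seeing the data. It was 2 within slide row 1, 0 within slides 1 and 2 (where 0 and 2 of all genes passed), and 3 to 5 on leaving out single arrays. In DKD+enarodustat against DKD it was 0 in all 32 settings, while the count over all genes was 485 as reported. That count was 291 with median centring, 1770 in the authors' deposited table, 284 with no filter, 276 with only the 2 groups, 915 with slide as a block, 84 with slide row as a covariate and 12 within slide row 2. It was 1, 0 and 0 within slides 1 to 3, and 286 to 497 on leaving out single arrays. In DKD+enarodustat against Sham the count of the 8 was 5 as reported, 2 with slide row as a covariate and 0 within slides 1 and 2. There 10744 of all genes passed with no filter, 1031 with slide row as a covariate, and 14 and 46 within slides 1 and 2. The fits within slides hold fewer arrays, and for the other moves the cause was not tested. Uncalled differences near 0 crossed it in some settings, such as Aqp11 in DKD+enarodustat against DKD, from -0.60 to 0.26. Slc14a2, at background on nearly all arrays, has no usable difference at this signal.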
